A study of Mus musculus with 6 samples.

Results

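The respiratory chain and ATP synthase subunits encoded in the nucleus were examined in RNA sequencing libraries of mouse bone marrow. Members were taken by gene symbol: those starting with Nduf, Uqcr or Atp5, the Cox4 to Cox8 families, and Sdha to Sdhd, with pseudogene symbols left out. Of 92 symbols in the table, 87 had at least 1 FPKM, a level scaled for transcript length and library size, in at least 3 libraries and were kept. They are 87 of 10676 genes that passed the same filter. By complex they comprised 36 subunits of complex I, 7 complex I assembly factors (Ndufaf symbols), 4 subunits of complex II, 8 of complex III, 15 of complex IV and 15 of ATP synthase. Atp5s and Atp5sl match by symbol and are not subunits. The rule used no measured value other than the filter on low levels. The subunits encoded by mitochondrial DNA were not analysed here.

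Wild-type (WT) mice received a control diet (CD) or a high cholesterol diet (HCD) for 3 months, and each diet has 3 libraries. Long-term haematopoietic stem cells (LT-HSCs) were the labelled population, sorted from marrow as cells without lineage markers that are c-Kit+, Sca1+, CD34- and CD135-. The labels give neither the animals' age nor whether a library is 1 animal, so p-values measure the spread between these libraries, which may be technical. The depth was estimated at 18800000 to 20400000 reads per library, at which 1 FPKM of a transcript of the members' median length (908 bases) corresponds to about 17.1 to 18.5 reads. HCD replicate 2 stood apart from the other libraries for many members and for short transcripts in general, and the main counts and medians are also given without it.

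Complex I (NADH dehydrogenase) takes electrons from NADH and complex II (succinate dehydrogenase) from succinate. Both pass them through coenzyme Q to complex III and then by cytochrome c to complex IV (cytochrome c oxidase), which reduces oxygen. Complexes I, III and IV pump protons, and ATP synthase uses the gradient to make ATP. Complex I is built stepwise with the help of assembly factors that are not part of the finished enzyme. Quiescent LT-HSCs are known to lean on glycolysis and to raise respiration as they divide and differentiate.

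The sort was checked first. Markers counted here as higher or lower passed limma's adjusted p of 0.05 in the fit described below. Of all tested genes 6.28% were called higher and 7.66% lower. Transcripts of both negative gate markers were abundant, with Cd34 between 448 and 488 FPKM and Flt3 (CD135) between 99.7 and 115 FPKM. The populations are therefore called the libraries labelled LT-HSC. Kit, at 114 to 122 FPKM, and Ly6a (Sca1), at 59.5 to 70.0 FPKM, were present in all 6. Of 11 tested LT-HSC and gate markers, these among them, 2 were higher and 3 lower (45.5%, beside 13.9% of all tested genes). With the length trend removed 3 of the 11 were called. The diets' libraries did not overlap in 8 of the 11 (72.7%), beside 37.7% of all tested genes. Markers of granulocyte and monocyte progenitors were higher under HCD in 6 of 6 genes, and their summed level was 878 to 907 FPKM under CD and 1650 to 1816 under HCD. All 5 tested neutrophil markers were higher, with a sum over the list of 11.9 to 12.02 against 37.6 to 45.1 FPKM. Without HCD replicate 2 only 3 of the 5 reached the filter, and all 3 passed. The others reached the filter only with that library, so their calls carry no weight. The 2 tested megakaryocyte markers were higher as well (sum over the 4 listed genes 44.8 to 49.2 against 73.9 to 88.8 FPKM). For basophils and mast cells 3 of 4 markers were higher. Of 5 tested macrophage markers 3 were lower and 1 was higher, and the 6 listed genes summed to 13.8 to 14.6 against 11.0 to 12.8 FPKM. The median level of the tested markers was 1.33 FPKM, near the filter. A gene this low that is lower under HCD can reach the filter through the CD libraries alone, so the lower calls carry no weight. Of 3 tested erythroid markers 1 was lower, and the 7 listed genes summed to 9.38 to 11.7 against 8.37 to 9.06 FPKM. Neither of the 2 tested B cell markers passed the test, Cd3e was listed at 0 in all libraries and Nkg7 was higher. The part of these cells in the values below was not tested, and in bulk libraries fewer cells of a type and less RNA per cell cannot be told apart.

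Levels per length differed between complexes. The median FPKM over members was 67.1 for complex I, 91.3 for complex II, 115 for complex III, 180 for complex IV and 170 for ATP synthase, beside 12.7 over all tested genes. The complex I assembly factors lay lower, at a median of 11.7 FPKM. Within complex I the 7 core subunits, which hold the redox centres and have bacterial counterparts, and the 29 accessory subunits had medians of 67.2 and 67.0 FPKM. Ndufa3, a small accessory subunit, was the most abundant complex I member at 168 FPKM and Ndufa11 the least at 11.9. Atp5b, the catalytic beta subunit of ATP synthase, was the most abundant of all 87 at 601 FPKM. Cox7a1 was just inside the filter at a mean of 1.80 FPKM and Cox4i2 just outside it at 0.701. The other symbols below the filter were Cox7b2, Cox8b, Cox8c and Ndufa4l2.

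**Figure D1:**
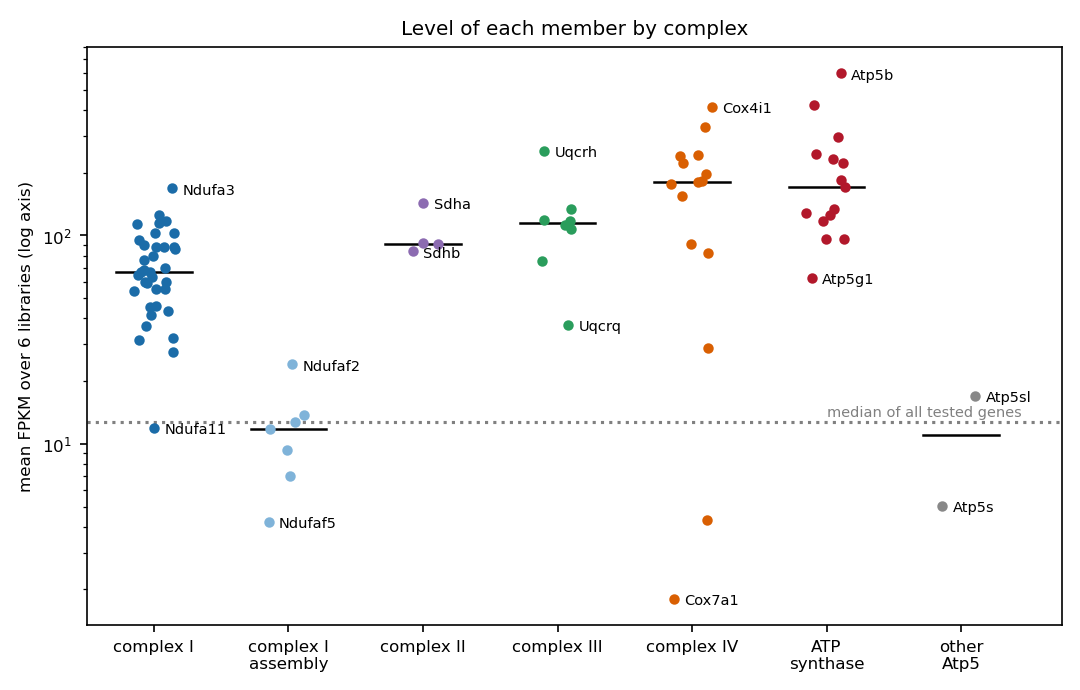
Mean FPKM over 6 libraries (log axis) of each member, grouped by complex, where each point is 1 gene, the black bar is the group's median and the dotted line is the median of all tested genes. Complex IV and ATP synthase have the highest medians (180 and 170 FPKM), and the complex I assembly factors sit at 11.7, near the dotted line at 12.7.

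As a whole, the members differed little between the diets. The test, limma on log2(FPKM + 1) with Benjamini-Hochberg adjustment over all tested genes at 0.05, was passed by 5 of 87 (5.75%), beside 13.9% of all tested genes. At an unadjusted p under 0.05 the members numbered 16 (18.4%), beside 30.9% of all tested genes. Ndufb5 and Ndufb11 rose (6.28% of all genes were called higher), and Ndufab1, Ndufaf2 and Ndufaf4 fell (7.66% were called lower). With TMM scaling, 4 members were called, 2 in each direction, beside 13.3% of all tested genes. Those divided into 793 higher (7.43%) and 624 lower (5.84%), against 670 and 818 without it. The median log2 change was 0.03 over the members (-0.01 with a trend on transcript length removed, and -0.02 without HCD replicate 2) and -0.03 over all tested genes, and the median size of the change was 0.07 and 0.12. The diets' libraries did not overlap in 16 of 87 members (18.4%), beside 37.7% of all tested genes. Of these 9 were higher under HCD, beside 15.0% of all tested genes, and 7 lower, beside 22.7%. Summed over the members, the CD libraries held 9638, 9761 and 9526 FPKM and the HCD libraries 9636, 10567 and 9458. The second HCD library was thus the highest and the third the lowest of the 6. As a share of each library's total the sum was 2.23% to 2.25% under CD and 2.17% to 2.29% under HCD.

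With the replicate number as a block, 9 of 87 members (10.3%) were called, beside 17.5% of all tested genes. Of the 9, 6 were higher (7.88% of all genes) and 3 lower (9.67%). Adding the removal of the length trend gave 10, beside 14.8%. The limma block fit kept all 5 calls and added Cox4i1, Cox6b2, Cox7a2l and Ndufv3, all higher. Their adjusted p were 0.0468, 0.0092, 0.0107 and 0.0142.

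**Figure D2:**
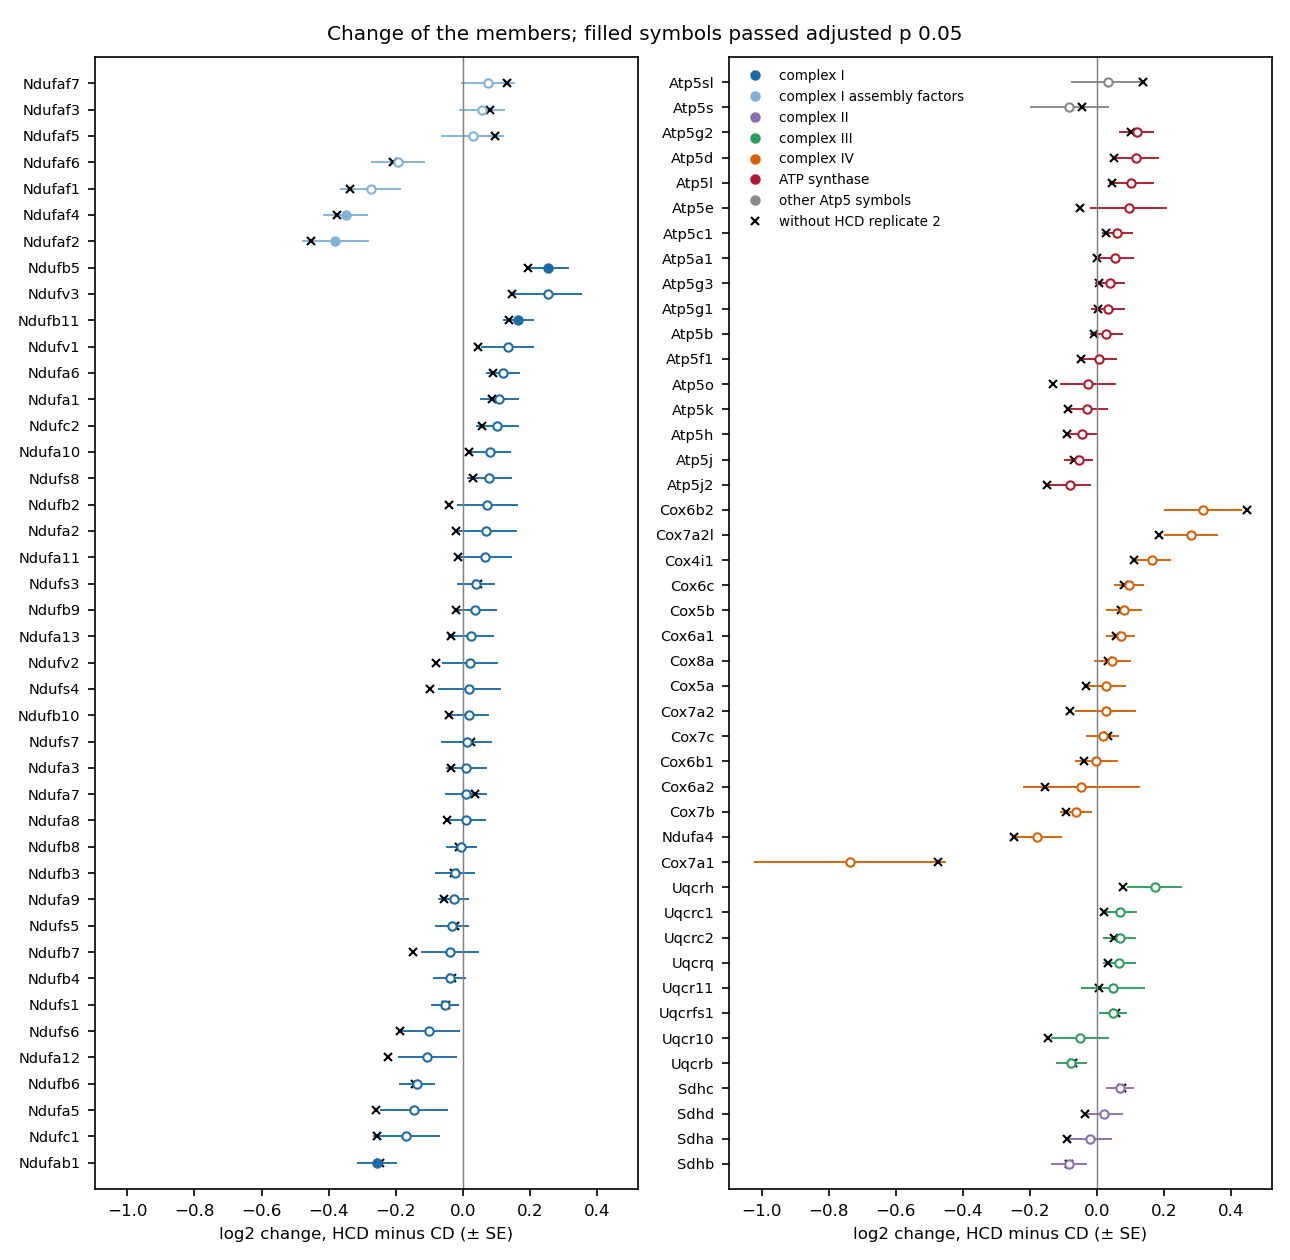
Log2 change (HCD minus CD, on log2(FPKM + 1)) of the members, grouped by complex, with bars of 1 SE; 1 member is not drawn. Filled points passed limma's adjusted p of 0.05 and crosses give the value without HCD replicate 2: the 5 filled points are Ndufb5 and Ndufb11 to the right of 0 and Ndufab1, Ndufaf2 and Ndufaf4 to the left.

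The complex I assembly factors held the lowest median change of any group, -0.19 on the log2 scale. Of the 7, 2 passed the test and both fell, beside 7.66% of all tested genes called lower. A set of 4 (Ndufaf1, Ndufaf2, Ndufaf4 and Ndufaf6) had every HCD library below every CD library, which 22.7% of all tested genes did. The summed level of the 7 was 87.8, 89.6 and 88.1 FPKM in the CD libraries and 74.9, 78.8 and 77.3 in the HCD libraries. The groups did not overlap, and the HCD mean was 0.870 of the CD mean. As a share of library FPKM the sum was 0.0205% to 0.0207% under CD and 0.017% to 0.0178% under HCD. The median change was -0.17 with TMM scaling, -0.22 with the length trend removed, -0.21 without HCD replicate 2 and -0.25 without CD replicate 1. Its range with 1 library left out is given in the last section. With TMM scaling 1 of the 7 was called lower, beside 5.84% of all tested genes.

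Ndufaf4, which with Ndufaf3 helps build the early part of the peripheral arm, measured 10.3, 10.9 and 10.6 FPKM in the CD libraries and 7.68, 8.45 and 8.19 under HCD. All HCD values lay below all CD values, and the spread within each diet was small. The mean fell from 10.6 ± 0.334 to 8.10 ± 0.392 FPKM (SD, n = 3 each), a log2 change of -0.35 ± 0.07 (SE; limma adjusted p = 0.0122). The gene lies on chromosome 4, 24898083-24905001, plus strand (GRCm38). The limma call held in all 8 alternatives that used 6 libraries. It was lost without CD replicate 1, 2 or 3 (adjusted p 0.0524, 0.0629 and 0.0569) and without HCD replicate 1 (0.0516), and over all 15 alternatives the p ranged from 0.00333 to 0.0629.

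Ndufaf2, a paralogue of the subunit Ndufa12 that joins late assembly intermediates, measured 28.6, 28.2 and 24.98 FPKM under CD and 17.5, 23.03 and 21.999 under HCD. HCD replicate 1 was the lowest and the groups did not overlap. This gave a log2 change of -0.38 ± 0.10 (limma adjusted p = 0.0407). The gene lies on chromosome 13, 108002715-108158623, minus strand. The limma call was lost with TMM scaling (adjusted p 0.0579), with quantile normalization (0.0504), with no filter (0.0898), without CD replicates 1, 2 and 3 (0.147, 0.133 and 0.0721) and without HCD replicates 1 and 3 (0.0805 and 0.0547). The range over 15 alternatives was 0.00701 to 0.147.

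The other assembly factors did not pass. Ndufaf1, part of the membrane arm assembly complex, measured 13.5, 14.9 and 16.8 FPKM under CD and 11.8, 13.4 and 11.6 under HCD. The highest HCD library lay just under the lowest CD library. Its log2 change was -0.27 ± 0.09 (limma adjusted p = 0.0764), and the call was gained without HCD replicate 2 (0.0170). Ndufaf6 averaged 7.51 FPKM under CD and 6.44 under HCD (limma adjusted p = 0.146). Ndufaf3, Ndufaf5 and Ndufaf7, the partner of Ndufaf4 and enzymes that modify complex I subunits, had log2 changes of 0.06, 0.03 and 0.08 with overlapping groups.

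Other complex I assembly genes, without the Ndufaf symbol, gave a median log2 change of -0.10 over 8 tested genes, of which 3 had a positive change. Of the 8, 0 were called higher and 2 lower, beside 6.28% and 7.66% of all tested genes. With the length trend removed, and also with TMM scaling, 1 was called. Timmdc1, a membrane protein of the assembly complex, measured 14.5, 13.4 and 13.7 FPKM under CD and 9.57, 11.2 and 10.6 under HCD. Its groups were well apart. The log2 change was -0.38 ± 0.07 (limma adjusted p = 0.0119), and the call was lost without CD replicates 1 and 3 (0.0650 and 0.0529). Tmem186, of the same complex, fell from 13.5 to 11.4 FPKM (limma adjusted p = 0.0445). The call of Tmem186 was kept in 5 of 15 alternatives and was lost with TMM scaling (0.0740), with quantile normalization (0.0953), with the length trend removed (0.0897) and without any 1 of CD replicates 1, 2 and 3 or HCD replicates 1 and 3. The range for Tmem186 reached 0.144.

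**Figure D3:**
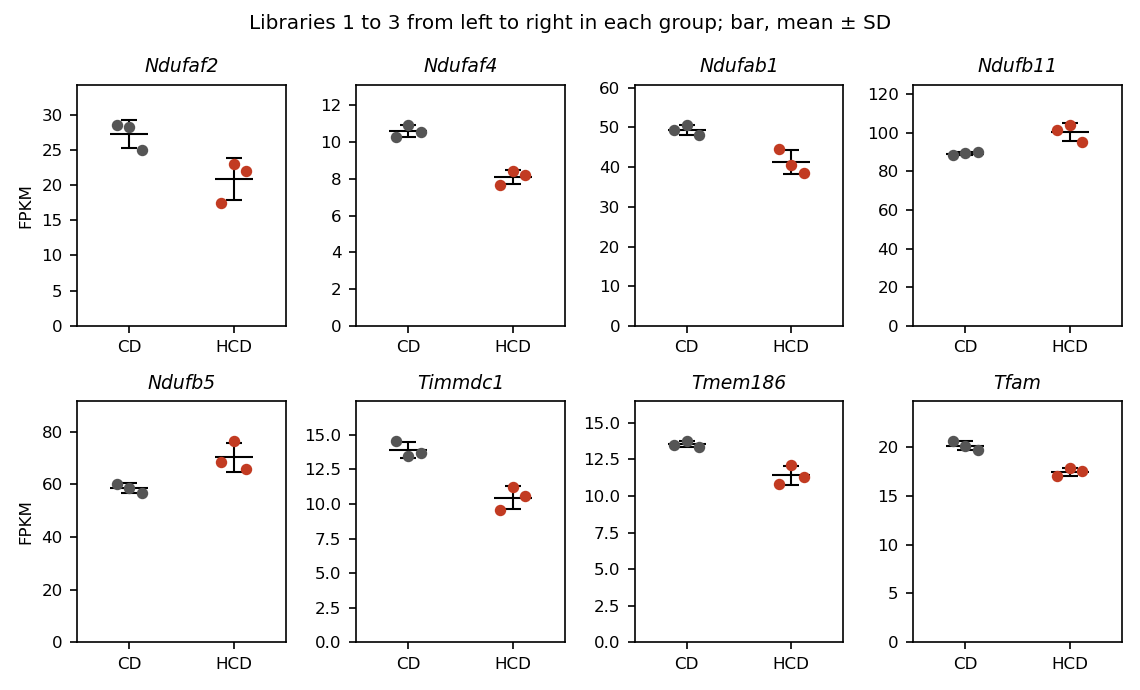
FPKM (y axis, separate scales) in the CD and HCD libraries, replicates 1 to 3 from left to right, for the 5 members past the test and for Timmdc1, Tmem186 and Tfam, with a bar at each diet's mean. In each of the 8 panels the highest library of the lower diet is below the lowest library of the other.

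Complex I itself had a median log2 change of 0.02 over 36 subunits (-0.02 with the length trend removed, and -0.03 without HCD replicate 2). Of the 36, 2 were called higher and 1 lower (8.33%, beside 13.9% of all tested genes). The 16 subunits of the peripheral arm, which reaches into the matrix and oxidises NADH, had a median of 0.02 (-0.02 without HCD replicate 2). Of the 16, 0 were called by limma, beside 13.9% of all tested genes, and 2 had an unadjusted p under 0.05 (12.5%, beside 30.9%). The 19 of the membrane arm, which pumps protons, had a median of 0.02 (-0.03 without HCD replicate 2) and 2 called higher, beside 6.28% of all tested genes. Of the 7 core subunits 0 passed limma's test (median 0.02), and 0 did so at an unadjusted p under 0.05, but 7 genes are few to set beside those shares. The most abundant subunits, Ndufa3, Ndufb10 and Ndufb9, had log2 changes of 0.01, 0.02 and 0.04 with overlapping groups. The diets' libraries did not overlap in 6 of the 36 subunits (16.7%), beside 37.7% of all tested genes. Short of the test, Ndufa6 had every HCD library above every CD library (111, 115 and 106 against 117, 125 and 118 FPKM). Ndufb6 had every HCD library below (62.2, 56.8 and 55.5 against 54.1, 53.2 and 51.1 FPKM), and so did Ndufs1, the largest core subunit (37.3, 37.9 and 37.7 against 36.6, 36.1 and 36.1 FPKM). Ndufv3, a small accessory subunit beside the NADH site, measured 27.3, 31.7 and 26.6 FPKM under CD and 31.6, 39.9 and 31.6 under HCD. Its groups overlapped through CD replicate 2 (log2 change 0.26 ± 0.10, limma adjusted p = 0.126).

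Ndufab1, the mitochondrial acyl carrier protein, sits in both arms of complex I and also serves lipoic acid and iron-sulphur cluster synthesis. It measured 49.4, 50.7 and 48.0 FPKM under CD and 44.6, 40.7 and 38.5 under HCD. The groups did not overlap, and the HCD libraries spread more widely. Its log2 change was -0.26 ± 0.06 (limma adjusted p = 0.0259). The gene lies on chromosome 7, 122085403-122101886, minus strand. The limma call was lost with no filter (adjusted p 0.0536), without CD replicates 1, 2 and 3 (0.0974, 0.103 and 0.0758) and without HCD replicate 3 (0.0631). The range over 15 alternatives was 0.0154 to 0.103.

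Ndufb5, an accessory subunit of the membrane arm, measured 60.3, 58.7 and 56.6 FPKM under CD and 68.4, 76.3 and 65.9 under HCD. Every HCD library was above every CD library, with HCD replicate 2 the highest. On the log2 scale Ndufb5 changed by 0.26 ± 0.06 (limma adjusted p = 0.0268). The gene lies on chromosome 3, 32736990-32751566, plus strand. The limma call was lost with no filter (adjusted p 0.0574), without CD replicates 1, 2 and 3 (0.0772, 0.0895 and 0.114) and without HCD replicate 1 (0.0655). It was kept without HCD replicate 2 (0.00836), and the range was 0.00836 to 0.114.

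Ndufb11, another membrane arm accessory subunit, measured 88.3, 89.4 and 90.1 FPKM under CD and 102, 104 and 95.2 under HCD. The CD libraries were nearly equal and the groups did not overlap. On the log2 scale Ndufb11 changed by 0.17 ± 0.05 (limma adjusted p = 0.0487). The gene lies on chromosome X, 20615326-20617619, minus strand. The limma call was lost with the length trend removed, alone and with the block (adjusted p 0.0794 and 0.0877), with no filter (0.0715), without CD replicates 1, 2 and 3 (0.167, 0.143 and 0.137) and without HCD replicate 1 (0.142). The range was 0.0255 to 0.167.

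The 5 gene models were compared with their neighbours, because reads of overlapping genes cannot be told apart where the counting is not stated to use strand. A protein-coding gene on the opposite strand started within 1000 bases of the start of 34 of 87 members (39.1%), beside 17.8% of 10557 annotated tested genes. Gene bodies overlapped in 26 members (29.9%, beside 26.0%). Ndufb11 starts 116 bases from Rbm10, an RNA-binding splicing regulator, and the gene models overlap. Rbm10 fell from 36.6 ± 0.611 to 31.4 ± 0.288 FPKM (log2 change -0.22 ± 0.04, limma adjusted p = 0.0150), the opposite direction to Ndufb11. Ndufb5 starts 615 bases from Mrpl47, a mitochondrial ribosomal protein gene that it overlaps, and Mrpl47 averaged 22.4 FPKM under CD and 18.8 under HCD (limma adjusted p = 0.163). Ndufaf2 starts 108 bases from Ercc8, a DNA repair gene (3.13 and 2.66 FPKM, limma adjusted p = 0.183). The gene model that Ndufaf2 overlaps is Smim15, a small membrane protein gene (24.6 ± 1.09 and 23.2 ± 0.491 FPKM, limma adjusted p = 0.340).

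The 250 bases before the RefSeq start are given for the 4 called members with the smallest p, since they moved in different directions (Ndufaf4, Ndufab1 and Ndufaf2 lower, Ndufb5 higher). The windows are GRCm38.p6 chr4:24897833-24898082 plus strand, chr7:122101849-122102098 minus strand, chr3:32736813-32737062 plus strand and chr13:108158626-108158875 minus strand, in the order printed. Each is written 5′ to 3′ along its gene and ends at the base before the start, with matches to the motifs searched in capitals.
Ndufaf4: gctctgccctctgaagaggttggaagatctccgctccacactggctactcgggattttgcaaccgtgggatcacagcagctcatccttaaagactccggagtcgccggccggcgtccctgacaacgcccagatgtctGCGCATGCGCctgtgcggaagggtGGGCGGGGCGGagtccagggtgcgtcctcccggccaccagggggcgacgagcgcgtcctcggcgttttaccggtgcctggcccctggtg
Ndufab1: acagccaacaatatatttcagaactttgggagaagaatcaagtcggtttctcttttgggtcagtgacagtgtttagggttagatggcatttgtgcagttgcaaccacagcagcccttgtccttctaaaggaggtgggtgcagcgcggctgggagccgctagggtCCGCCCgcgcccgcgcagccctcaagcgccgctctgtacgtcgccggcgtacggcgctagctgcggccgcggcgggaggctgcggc
Ndufb5: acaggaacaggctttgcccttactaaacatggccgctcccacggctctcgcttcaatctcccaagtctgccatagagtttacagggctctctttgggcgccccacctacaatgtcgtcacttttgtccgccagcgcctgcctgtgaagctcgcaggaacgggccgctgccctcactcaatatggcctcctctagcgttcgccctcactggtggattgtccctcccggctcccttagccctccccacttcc
Ndufaf2: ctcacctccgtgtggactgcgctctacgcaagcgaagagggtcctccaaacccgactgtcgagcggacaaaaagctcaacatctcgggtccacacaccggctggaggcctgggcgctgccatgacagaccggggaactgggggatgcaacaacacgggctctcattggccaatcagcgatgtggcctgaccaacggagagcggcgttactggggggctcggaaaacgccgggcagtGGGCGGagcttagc
In the Ndufaf4 window the NRF1 letters matched on both strands, in overlapping runs that begin 113 and 112 bases before the start, and GGGCGG matched at 89 and 84 bases, overlapping by 1 base. The Ndufab1 window held 1 SP1 match on the opposite strand, 86 bases before the start. Ndufaf2 had 1 SP1 match, 14 bases before the start, and Ndufb5 had none of the motifs in these 250 bases. GC content was 66.4%, 60.8%, 59.6% and 63.2%.

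Motifs were then counted in windows from 250 bases before to 50 after the start, on both strands, for the 74 of 87 members with a RefSeq promoter, 8700 tested genes and all 32851 windows. The letters GCGCANGCG, for NRF1, a regulator of nuclear respiratory genes, were in 22 member windows (29.7%), beside 16.4% of tested genes and 6.25% of all windows. They were in 7 of 14 ATP synthase windows, 8 of 32 of complex I and 1 of 12 of complex IV. AAGATGGC, for YY1, was in 11 member windows (14.9%, beside 5.71% and 2.75%), 7 of them in complex I and 3 in ATP synthase. CCGGAAGT, for ETS factors, was in 5 (6.76%, beside 10.1% and 3.89%) and TATAAA also in 5 (beside 8.16% and 13.6%). GGGCGG, for SP1, was in 33 (44.6%, beside 69.9% and 35.7%). The members' windows had a median GC content of 56.8%, against 60.0% in tested genes. A match describes letters and not binding.

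Complex II, which also works in the TCA cycle, had 0 of 4 subunits called (limma adjusted p 0.299 to 0.859), and 0 also at an unadjusted p under 0.05. Of all tested genes 13.9% were called and 30.9% had such a p, and 4 genes are too few to set against these shares. Sdha, the flavoprotein that oxidises succinate, measured 144, 145 and 143 FPKM under CD and 138, 157 and 133 under HCD. The HCD libraries lay on both sides of the CD libraries. Sdhb, the iron-sulphur subunit, had a log2 change of -0.08, and Sdhd, a membrane anchor, 0.02. The other anchor, Sdhc, measured 86.9, 90.5 and 87.7 FPKM under CD and 91.1, 92.0 and 95.04 under HCD. Its groups did not overlap, with a log2 change of 0.07 ± 0.04 that did not pass the test.

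Complex III had a median log2 change of 0.06 (0.03 without HCD replicate 2) and 0 of 8 subunits called by limma, with 0 at an unadjusted p under 0.05. The shares over all tested genes were 13.9% and 30.9%, and 8 genes are few to set against them. Uqcrh, the hinge protein that binds cytochrome c1, was the most abundant and had the smallest p, with 250, 233 and 236 FPKM under CD and 244, 308 and 261 under HCD. HCD replicate 1 lay within the CD range. Its log2 change was 0.17 ± 0.08 (limma adjusted p = 0.186). Uqcrc1 and Uqcrc2, the large core proteins, changed by 0.07 and 0.07, and Uqcrfs1, the Rieske iron-sulphur protein, by 0.05, none past the test.

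Complex IV had a median log2 change of 0.03 (-0.02 with the length trend removed). Of its 15 subunits 0 were called by limma, beside 13.9% of all tested genes, and 5 had an unadjusted p under 0.05 (33.3%, beside 30.9%). The HCD libraries all lay above the CD libraries in 4 of the 15 (Cox4i1, Cox6a1, Cox6c and Cox7a2l), beside 15.0% of all tested genes. Cox7a2l, which helps join complex III with complex IV in supercomplexes, measured 200, 209 and 193 FPKM under CD and 234, 278 and 221 under HCD. All HCD values were above the CD values, and HCD replicate 2 was the highest. The log2 change was 0.28 ± 0.08 (limma adjusted p = 0.0533), just short of the threshold. It passed in 7 of 15 alternatives, with the block (0.0107) and without HCD replicate 2 (0.00980) among them. Cox4i1, the most abundant complex IV member, measured 391, 399 and 384 FPKM under CD and 428, 473 and 418 under HCD. Its groups did not overlap, and the log2 change was 0.16 ± 0.06 (limma adjusted p = 0.0894). Ndufa4, first described in complex I and now placed in complex IV, measured 368, 361 and 326 FPKM under CD and 294, 342 and 297 under HCD. HCD replicate 2 lay within the CD range, and the log2 change was -0.18 ± 0.07 (limma adjusted p = 0.137). Without that library the limma adjusted p was 0.00563.

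Several complex IV subunits have alternative isoforms with known tissue preferences, and the same isoform of each was the higher in all 6 libraries. The ratio of mean FPKM was 593 for Cox4i1 over Cox4i2 (460 to 942 across libraries), 41.3 for Cox6a1 over the heart and muscle form Cox6a2, and 45.7 for Cox7a2 over the muscle form Cox7a1. Cox8a averaged 241 FPKM, while Cox8b was listed at 0 in all 6. Cox6b2, known as the testis form, was the least rare alternative: Cox6b1 was 8.47 times higher. Cox6b2 measured 25.9, 22.8 and 28.1 FPKM under CD and 34.4, 26.5 and 35.8 under HCD. HCD replicate 2 overlapped the CD libraries and the other HCD libraries did not. The log2 change was 0.32 ± 0.12 (limma adjusted p = 0.104), with 0.00308 without HCD replicate 2. As a share of Cox6b1 plus Cox6b2 it was 8.17% to 10.8% under CD and 9.33% to 13.8% under HCD. Cox7a1 measured 1.997, 1.88 and 3.48 FPKM under CD and 2.19, 0.412 and 0.860 under HCD, which overlap (limma adjusted p = 0.122).

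ATP synthase had a median log2 change of 0.03 (-0.01 with quantile normalization, and -0.01 without HCD replicate 2). Of its 15 subunits 0 were called by limma, beside 13.9% of all tested genes. At an unadjusted p under 0.05 there was 1, Atp5g2 (6.67%, beside 30.9%). The 5 subunits of the catalytic F1 head had a median of 0.06 and the 10 of the Fo part and stalk -0.01 (0.00 and -0.06 without HCD replicate 2). Atp5b measured 589, 601 and 593 FPKM under CD and 587, 639 and 595 under HCD. HCD replicate 2 stood above the other 5. The log2 change was 0.03 ± 0.05 (limma adjusted p = 0.732). Atp5b exceeded Atp5a1, its partner in the head, by 1.42 times on average, and by 1.38 to 1.45 times across libraries. Atp5g1, Atp5g2 and Atp5g3 encode the same mature subunit c of the rotor, and together they held 493 to 552 FPKM. Atp5g1 gave 11.6% to 12.6% of that sum, Atp5g2 41.5% to 44.9% and Atp5g3 43.5% to 46.5%. Atp5g2 had every HCD library above every CD library (205, 218 and 219.9 against 240, 238 and 220.3 FPKM), with a log2 change of 0.12 ± 0.05 that did not pass (limma adjusted p = 0.160).

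HCD replicate 2 stood above the other libraries in most complexes. Set against the CD mean, the median member difference was 0.00 in HCD replicate 1, 0.10 in HCD replicate 2 and -0.02 in HCD replicate 3, where all tested genes gave -0.02, -0.05 and -0.02. In HCD replicate 2 the members above the CD mean numbered 64 of 87, against 44 and 36 in replicates 1 and 3. That library was the highest of the 6 for 50 of 87 members (57.5%, beside 20.3% of all tested genes), for 13 of 15 ATP synthase subunits and for 23 of 36 complex I subunits. It was the highest for 0 of 7 assembly factors, whose medians were -0.16, -0.15 and -0.26 in the 3 HCD libraries. Cytosolic ribosomal protein genes had the same library on top in 95.1% of 81 genes, and their share of FPKM was 25.5% to 26.1% under CD and 26.3% to 29.2% under HCD. Between replicates, the members' median coefficient of variation was 4.07% under CD and 7.15% under HCD. Taken from HCD replicates 1 and 3 alone, 2 libraries in place of 3, it was 3.04%.

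**Figure D4:**
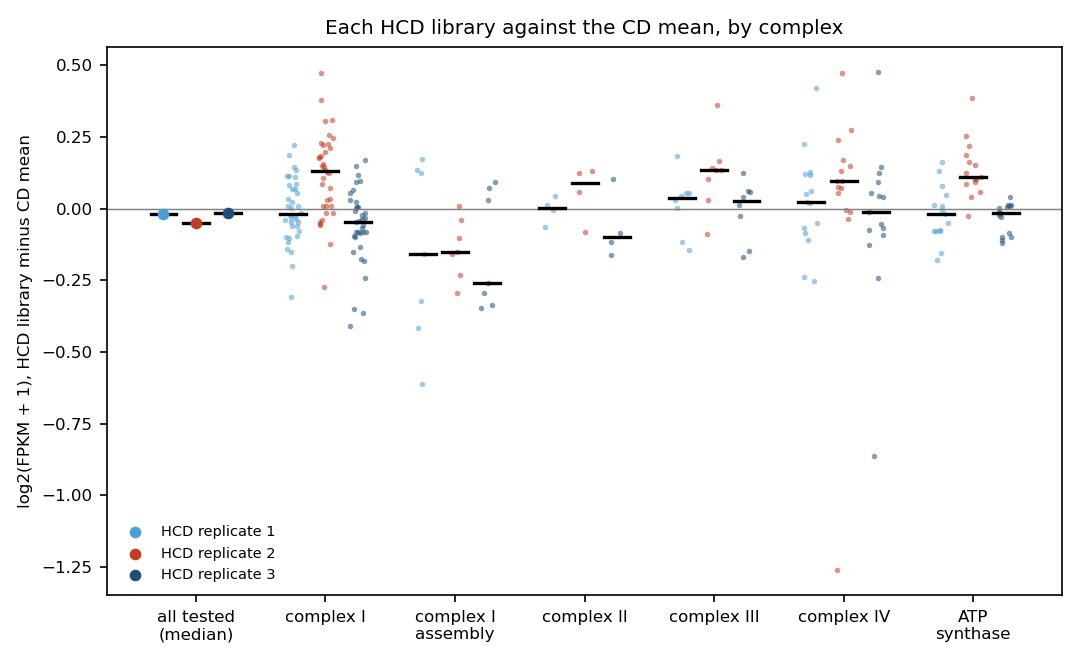
Difference of each HCD library from the CD mean (log2(FPKM + 1), y axis) for the members of each complex, where each point is 1 gene and black bars are medians. Medians in HCD replicate 2 lie at 0.13 for complex I and 0.11 for ATP synthase, while the medians of the assembly factors lie below 0 in all 3 libraries.

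Without HCD replicate 2, more members passed: 16 of 87 (18.4%), beside 25.2% of 10607 tested genes. Of these 5 were higher (Cox4i1, Cox6b2, Cox7a2l, Ndufb5 and Ndufb11; 11.0% of all genes were called higher) and 11 lower (14.2% were called lower). The lower ones were Ndufaf1, Ndufaf2 and Ndufaf4 among the assembly factors, Ndufa5, Ndufa12, Ndufab1, Ndufb7 and Ndufc1 in complex I, Ndufa4 in complex IV, and Atp5j2 and Atp5o in ATP synthase. The 5 calls made with all libraries were among the 16, and the members' median log2 change was -0.02. Leaving out CD replicate 1, 2 or 3 left 0 members called by limma, without HCD replicate 1 there were 2, and without HCD replicate 3 there were 4. The count over all tested genes also varied with the library left out, and its range is given in the last section. Member counts and single calls lost in these fits are to be read beside that range. HCD replicate 2 was kept in the values above because no label sets it apart.

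Transcript length went with the same library. Members are short: 47 of 87 (54.0%) have a reference transcript under 1000 bases, beside 684 of 10609 tested genes with a known length, and the median is 908 against 2953 bases. Over all tested genes, the median difference of HCD replicate 2 from CD was 0.15 for transcripts under 700 bases and -0.15 for those over 4000. For members under 700 bases the medians in HCD replicates 1, 2 and 3 were -0.05, 0.10 and -0.07, where all 248 genes of that length had 0.06, 0.15 and 0.04. For members of 1500 to 2500 bases HCD replicate 2 gave 0.13, beside 0.00 for all genes of that length. With the length trend removed in each library, 6 members passed the limma test, beside 12.5% of all tested genes. How far length accounts for the differences was not tested.

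**Figure D5:**
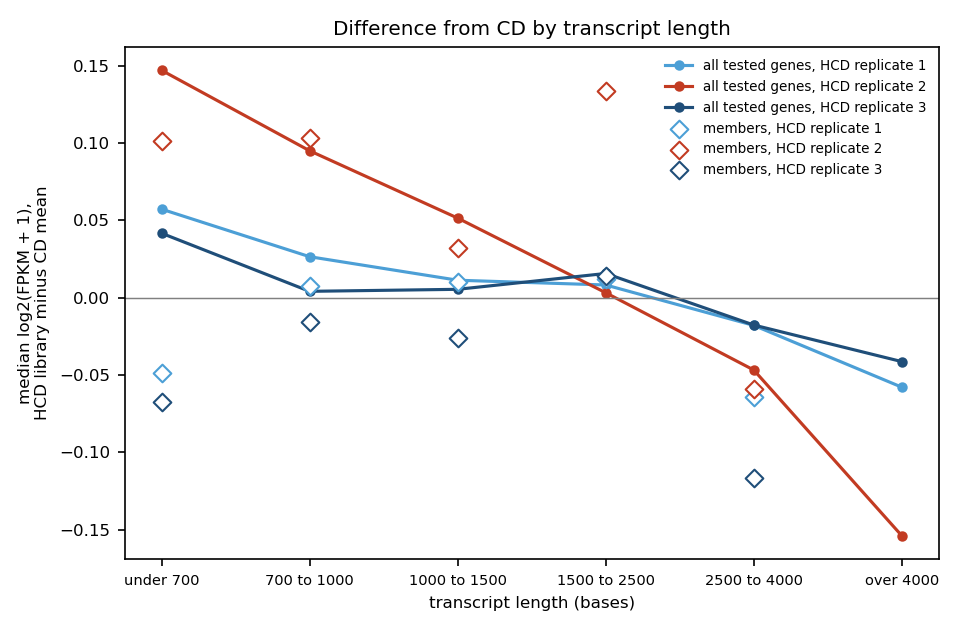
Median difference from the CD mean (log2(FPKM + 1), y axis) by transcript length (x axis, bases) in each HCD library, with lines for all tested genes and diamonds for members in bins of at least 5. The line of HCD replicate 2 falls from 0.15 to -0.15, and the member diamonds of replicates 1 and 3 under 700 bases lie at -0.05 and -0.07.

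Genes around the chain were counted from lists chosen with earlier results of these data known. The counts are to be read beside 6.28% of all tested genes called higher and 7.66% lower. Without HCD replicate 2 those shares were 11.0% and 14.2%, and with the block 7.88% and 9.67%. Of 18 tested carriers and subunits outside the symbol rule, 2 were called higher and 0 lower (median log2 change 0.06). The carriers without HCD replicate 2 had a median of 0.01, with 5 called higher and 2 lower, and with the block 2 were higher and 1 lower. Ucp2, an inner membrane carrier of the uncoupling protein family, measured 217, 228 and 213 FPKM under CD and 272, 265 and 257 under HCD. The groups did not overlap, and the log2 change was 0.27 ± 0.05 (limma adjusted p = 0.00920). The call of Ucp2 was lost without CD replicates 1 and 3 (0.0557 and 0.0562). 2010107E04Rik, a small ATP synthase associated protein, rose from 83.9 to 96.5 FPKM (limma adjusted p = 0.0294) and lost the call with no filter, with the block and length trend together, without CD replicates 1, 2 and 3 and without HCD replicate 1 (up to 0.117).

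Of 36 assembly genes of complexes II to IV and ATP synthase, 0 were called higher and 1 lower (median -0.06). The block fit called 5 of them, 1 higher (Uqcc3, limma adjusted p = 0.0332) and 4 lower (Lrpprc, Sco1, Coa4 and Cox18, 0.0451, 0.0350, 0.0467 and 0.0496). Without HCD replicate 2, 1 was higher and 5 lower (median -0.07). The single call of the unblocked fit was Lrpprc, which stabilises mitochondrial mRNAs, at 22.98 and 19.5 FPKM (limma adjusted p = 0.0499). The call of Lrpprc was kept in 4 of 15 alternatives and was lost with TMM scaling (0.0861), with the length trend removed (0.155) and without CD replicates 1, 2 and 3 or HCD replicates 1 and 3. Of 13 coenzyme Q genes 1 was higher and 1 lower (median 0.04). They numbered 2 and 2 without HCD replicate 2 (median 0.02). Coq2, which joins the ring to its side chain, fell from 43.9 to 36.7 FPKM (limma adjusted p = 0.0116) and kept the call in 14 of 15 alternatives, all but without CD replicate 1 (0.0658). Adck3, an atypical kinase of the same route, rose from 9.89 to 12.4 FPKM (limma adjusted p = 0.0233). Its call was lost without CD replicates 1, 2 and 3 and without HCD replicate 1 (0.0574 to 0.0980). Of 24 genes of the TCA cycle and pyruvate entry 2 were higher and 0 lower (median 0.01). Without HCD replicate 2, 3 were higher and 1 lower (median -0.02), and the block added Pdha1 (limma adjusted p = 0.0353). The genes called without the block, Pdk2 (7.95 to 11.4 FPKM, limma adjusted p = 0.0403) and Pdk1 (23.05 to 26.7, 0.0447), encode kinases that switch off pyruvate dehydrogenase. Pdk1 and Pdk2 each lost the call with no filter, without CD replicates 1, 2 and 3 and without HCD replicate 3, and Pdk1 also without HCD replicate 1, with adjusted p of up to 0.158 and 0.146.

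Genes for copying and transcribing mitochondrial DNA had a median log2 change of -0.16, with 0 of 13 called higher and 3 lower, beside 6.28% and 7.66% of all tested genes. The median without HCD replicate 2 was -0.05 with 4 called lower, and with the block 2 were lower. Tfam, which packages mitochondrial DNA and starts its transcription, measured 20.6, 20.1 and 19.7 FPKM under CD and 17.0, 17.8 and 17.5 under HCD. The groups were narrow and apart. Its log2 change was -0.20 ± 0.05 (limma adjusted p = 0.0391), but the call of Tfam was lost with the block (0.0525), with TMM scaling (0.0691), with quantile normalization (0.0627), with the length trend removed (0.120), and without CD replicates 1, 2 and 3 or HCD replicates 1 and 3 (up to 0.148). Peo1, the mitochondrial helicase Twinkle, fell from 17.6 to 14.6 FPKM (limma adjusted p = 0.0358), a call lost with no filter, with the block and length trend together, without CD replicates 1, 2 and 3 and without HCD replicate 1 (up to 0.129). Mgme1, a mitochondrial exonuclease, fell from 13.5 to 10.5 FPKM (limma adjusted p = 0.0157) and kept the call in 13 of 15 alternatives, all but without CD replicates 2 and 3 (0.0728 and 0.0754).

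Of 13 tested nuclear regulators of respiratory genes 1 was called higher and 2 lower (median -0.10, and 0.01 with the length trend removed). Leaving out HCD replicate 2 gave 1 higher and 3 lower (median -0.07). Pprc1, a coactivator of the PGC-1 family, measured 14.3, 14.7 and 16.6 FPKM under CD and 11.4, 10.2 and 12.3 under HCD. The groups did not overlap, and the log2 change was -0.39 ± 0.08 (limma adjusted p = 0.0186). Sp1 fell from 28.1 to 24.2 FPKM (limma adjusted p = 0.0268), with 0.301 once the length trend was removed. Sirt3, the main mitochondrial deacetylase, rose from 46.3 to 55.5 FPKM (limma adjusted p = 0.0192). The calls of Pprc1, Sp1 and Sirt3 were each lost without CD replicates 1, 2 and 3 and without HCD replicate 1.

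Among the 77 mitochondrial ribosomal protein genes 1 was called higher and 3 lower, beside 6.28% and 7.66% of all tested genes, with a median log2 change of -0.05. Without HCD replicate 2, 2 were higher and 16 lower (11.0% and 14.2% of all tested genes), with a median of -0.09, and with the block 2 were higher and 6 lower. Their share of FPKM was 0.584% to 0.591% under CD and 0.543% to 0.572% under HCD. The tested genes most like the members' mean profile over 6 libraries were Ifi47 (Pearson r 0.996), Psmb6 (0.994), Pfdn1 (0.992), Msto1 (0.989) and Yif1b (0.988). These 5 shared the high value in HCD replicate 2, and with 6 libraries that all genes share the likeness is a description.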

How the data were processed

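The mRNA libraries of 6 samples were made with a stranded kit, per the labels' protocols. Tools named in the submitters' processing notes are fastp, HISAT2 and StringTie, with GRCm38 (mm10) as the build. Tool versions, the annotation and whether counting used strand: not given in the sources used here. Values deposited by the authors carry no unit in the header and are read here as FPKM since StringTie is named. Each table had 21878 rows, of which 27 with a date in place of a symbol (0.127% of FPKM) were left out. Sums were 427219 to 462370 FPKM. The value of 1 read, taken from genes seen in a single library, gave the depth, a precision for counting error only.

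Groups were compared with limma 3.58.1 in R 4.3.3 (trend, robust, two-sided) on log2(FPKM + 1). The fit took the 10676 genes that reached 1 FPKM in 3 or more libraries, and p was adjusted over them by Benjamini-Hochberg. Fold changes on this scale understate those of low genes. No count model was used. Alternatives were a pseudocount of 0.1, a minimum of 5 FPKM, no filter, TMM and quantile scaling, a loess of each library on transcript length, a replicate block and leaving out each library. The combination of length and HCD replicate 2 was chosen after seeing the data. Deviations from the group means correlated at 0.103, 0.292 and 0.166 between libraries of the same number and at -0.25 to 0.0983 otherwise. The lowest same-number value, 0.103, was close to the highest other value, 0.0983, so these correlations do not settle whether the numbers pair the libraries. The main fit used no block, and the block fit is given as an alternative.

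Positions and lengths are from GENCODE M21 (GRCm38; lengths for 99.4% of tested genes), and promoters from RefSeq (GRCm38.p6). Named genes were all members past the threshold, in each complex the most abundant 3 and the 2 with the smallest p, subunit isoforms, all Sdh genes, those beside the filter, called genes of the other lists (those called with the block were chosen after their values were seen), neighbours of called members and the 5 most similar profiles. Members and lists were chosen with earlier results of these data known. A single item is not reported here.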

Additional observations from a re-analysis of the deposited data

How the results depend on the processing

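The count of 5 members called stayed within 1.5 times with TMM factors, a minimum of 5 FPKM, the length trend removed, a pseudocount of 0.1 and quantile normalization (4 to 6). With no filter 1 was called, 0 higher and 1 lower. The replicate block gave 9 (6 higher) and the block with the length trend removed 10 (4 higher, 6 lower). Removing the length trend without HCD replicate 2 gave 17 (5 higher, 12 lower) and 2534 genes in all. Leaving out 1 library gave 0 to 16 members (0 to 5 higher, 0 to 11 lower) and 435 to 2672 genes. The cause was not tested. The members' median log2 change ranged from -0.036 to 0.053. Complex medians moved by more than the replicate spread for the assembly factors (-0.253 to -0.152 with 1 library left out), complex II (-0.06 to 0.0402 with 1 left out, and -0.0611 with the length trend also removed and without HCD replicate 2) and complex IV (0.0281 to 0.0674 with 1 left out, and -0.0236 with the length trend removed, with and without the replicate block). The others moved less, but complex I (0.0153) came to -0.024 with the length trend removed and -0.0255 without HCD replicate 2, ATP synthase (0.0332) to -0.00843 and complex III (0.0579) to 0.0275 without it. Over 15 alternatives for 37 named members, 501 results kept their side and direction, 23 gained a call, 29 lost one and 0 reversed a called one. Of 455 below the threshold in both, 60 had the other sign. Groups of 3 limit the test, and low members such as Cox7a1 rest on few reads.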
